A study of Homo sapiens with 6 samples.

Results

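The heterogeneous nuclear ribonucleoproteins (hnRNPs) and the serine/arginine-rich (SR) splicing factors were examined in HEK293T cells, a human embryonic kidney line, after the level or the sequence of the RNA helicase DDX3X had been altered. Members were taken by symbol: every gene whose name begins with HNRNP followed by a letter, every numbered SRSF gene, and the SR-related genes PNN, TRA2A, TRA2B, SRRM1, SRRM2 and ACIN1. Of 23204 gene symbols, 43 matched. The 41 that reached 1 RPKM (mapped reads scaled to transcript length and library size) in at least 1 library were kept, 23 of them hnRNP genes and 18 SR or SR-related genes (12 SRSF and 6 SR-related). Of the 23 hnRNP symbols, 5 are copies, an antisense RNA or a readthrough transcript (HNRNPA1P10, HNRNPA1L2, HNRNPCL1, HNRNPU-AS1 and HNRNPUL2-BSCL2), which leaves 18 hnRNP genes proper. The 2 symbols left out were pseudogenes: HNRNPA3P1 stood at 0.951 RPKM at most and HNRNPKP3 at 0.0059 RPKM at most, whereas HNRNPCL1, the lowest symbol kept, reached 1.14 RPKM in 1 library.

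There were 6 RNA-seq libraries, 1 per group, so no difference reported here has a replicate check and none carries a p-value. In 4 groups, cells were transiently transfected with 5 µg of plasmid for GFP alone (GFP), or for GFP-DDX3X in its wild-type form (WT) or with the substitution T275M or G302V, and GFP-positive cells were sorted after 32 h. A plot legend in the study names a different substitution in place of T275M for its RNA-seq, so T275M here means the library labelled T275M. In the other 2 groups, cells were given a control siRNA (siControl) or an siRNA against DDX3X (siDDX3X) for 48 h, with no sorting described. The endogenous DDX3X gene was still present in the plasmid groups, so the substituted proteins were added to the cell's own. DDX3X itself stood at 107 RPKM in siControl and 31.3 RPKM in siDDX3X, and at 119 RPKM in GFP against 2894 in WT, 3279 in T275M and 1906 in G302V, where plasmid and endogenous reads count together. The depth recovered from the values lay between 43720000 and 67520000 reads in 5 libraries and was 180870000 in siDDX3X. The labels call the cells neuronal. Of 8 neuronal markers, 4 or 5 reached 1 RPKM in a library, and NEFM (514 to 683 RPKM) and NEFL (109 to 140 RPKM) were abundant. The synaptic gene SYN1 and the neuronal nuclear marker RBFOX3 stayed under 1 RPKM in all 6 libraries. Of 6 markers listed for epithelial cells or an embryonic kidney line, 4 reached 1 RPKM in each library. Among these, VIM stood at 213 to 277 RPKM and KRT18 at 34.3 to 47.3, whereas EPCAM and PAX2 stayed under 1 RPKM.

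hnRNPs coat nascent transcripts and often keep the splicing machinery from exons, although several also help splicing, package mRNA or carry it to the cytoplasm. SR proteins bind exons through RNA-recognition motifs and recruit spliceosome components through their serine/arginine-rich tails, whose phosphorylation by the SRPK and CLK kinases controls where they sit and what they bind. Many genes of both families control their own output: when the protein is plentiful, an extra exon with an early stop codon, often called a poison exon, is spliced into the gene's own transcript, and that transcript is then removed by nonsense-mediated decay.

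The hnRNP genes were among the most abundant transcripts of these cells. The 18 hnRNP genes proper had a median between 219 and 273 RPKM in the 6 libraries, and the 18 SR and SR-related genes one between 77.2 and 90.4 RPKM. The chosen rows of the hnRNP genes took 1.2% to 1.5% of all reads, and those of the SR and SR-related genes 0.481% to 0.555%. Both families had many annotated decay isoforms: all 12 SRSF genes, 5 of 6 SR-related genes and 12 of 18 hnRNP genes (66.7%) had at least 1 transcript that GENCODE 44 types as a nonsense-mediated decay target, beside 48.4% of the 770 genes that averaged 100 RPKM or more. The median number of annotated transcripts was 10 for SRSF genes and also 10 for those 770 genes, and 17 for hnRNP genes.

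HNRNPA1, which shuttles with mRNA and represses exons, was the most abundant member, with a mean of 1328 RPKM over the 6 libraries. Its row was the one with the highest RPKM but carries the accession of a noncoding transcript, NR_002944, which the tables also list under the processed pseudogene HNRNPA1P10, so the HNRNPA1 and HNRNPA1P10 values share reads and are uncertain. The coding row NM_002136 stood at 1050 RPKM in siControl, 860 in siDDX3X, 1156 in GFP, 1050 in WT, 1022 in T275M and 925 in G302V. HNRNPA2B1 (GRCh37 chr7:26210771-26241149, minus strand), which binds and sorts mRNAs and whose level the study followed as protein, was the next most abundant protein-coding gene with a mean of 674 RPKM. HNRNPK (mean 444 RPKM), a poly(C)-binding protein, and HNRNPC (mean 405 RPKM), which coats uridine tracts, came after it. Among SR genes, SRSF9 led with 263 RPKM, followed by SRSF2 (188), SRSF5 (165) and SRSF3 (163), all of them regulators of exon inclusion. The lowest were SRSF12 at 4.88 RPKM and the retrocopy HNRNPCL1 at 0.878 RPKM. Each gene's level moved little compared with the span between genes: the highest library of a gene exceeded its lowest by 1.10 times in HNRNPA0 to 1.57 times in HNRNPU-AS1, and by 1.73 times in the barely detected HNRNPCL1.

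**Figure D1:**
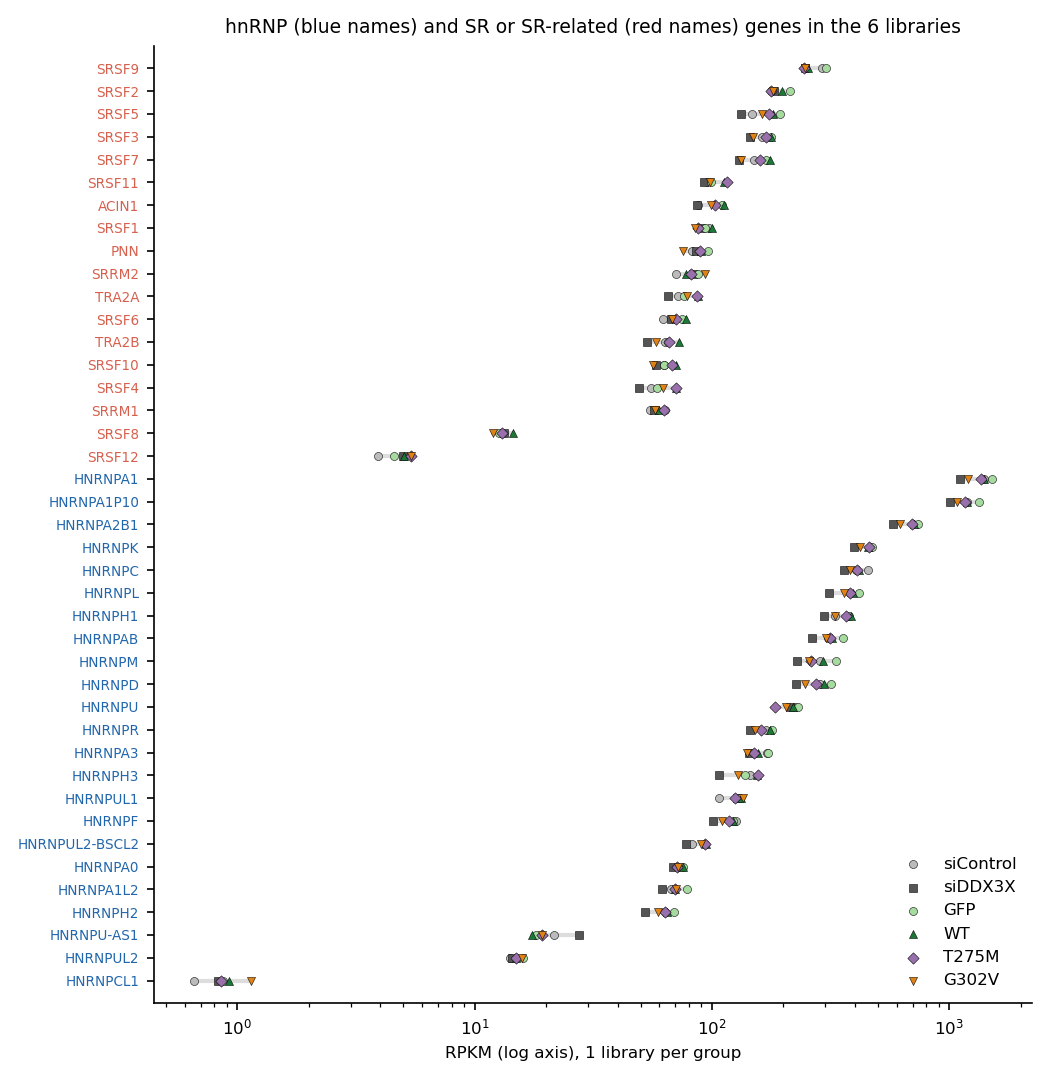
RPKM of the 41 genes (log axis), 1 point per library and 1 library per group, with a grey line from a gene's lowest to its highest library. Of the 18 hnRNP genes proper, 14 were lowest in siDDX3X and 12 highest in GFP. Of the 18 SR and SR-related genes, 8 were lowest in siDDX3X and 9 highest in WT. The same counts were not made over all genes. Of all genes of 100 RPKM or more, 73.0% were lower in siDDX3X than in siControl. Below GFP were 75.3% of them in WT, 88.0% in T275M and 88.9% in G302V.

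The largest ratio among the members was that of an exon in SRSF3, not of a gene's total. All values are from bulk RNA, where fewer cells with a transcript and less of it per cell cannot be told apart. The tables list several RefSeq transcripts per gene as rows that share reads, and where the longer of a pair of rows exceeds the shorter by exactly the length of 1 annotated exon, the extra reads of the longer row were taken as reads of that exon. Such an extra segment could be read for 19 pairs of rows in 15 member genes. Its density, in reads per base as a percentage of that of the shorter row, is not an inclusion level, since reads that only partly overlap the exon count too and short exons can pass 100%.

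In SRSF3, a small SR protein that takes part in splicing and mRNA export, the segment was a 456-base exon at GRCh37 chr6:36567598-36568053, plus strand, which GENCODE 44 holds in a nonsense-mediated decay transcript and in no other type. It separates row NR_036610 from the coding row NM_003017. The exon received 484 reads in siControl, 1337 in siDDX3X, 424 in GFP, 1596 in WT, 1076 in T275M and 381 in G302V. Its density was 9.69% of the coding row in siControl, 11.3% in siDDX3X, 9.59% in GFP, 31.3% in WT, 29.4% in T275M and 12.9% in G302V. The WT and T275M libraries thus stood far above the other 4, and G302V lay close to GFP. The density ratio was 3.27 for WT against GFP (95% counting interval 2.94 to 3.65) and 3.07 for T275M against GFP (2.74 to 3.44), while it was 1.34 for G302V against GFP (1.17 to 1.55), 0.411 for G302V against WT (0.367 to 0.460) and 0.938 for T275M against WT (0.867 to 1.01). In the siRNA pair it was 1.16 (1.05 to 1.29). The coding row did not follow: it stood at 162 RPKM in siControl, 144 in siDDX3X, 177 in GFP, 178 in WT, 169 in T275M and 148 in G302V.

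The opening of that exon is shown because it carries the early stop of the decay isoform. Reading on from the upstream exon, the annotated coding part ends after 34 bases, at chr6:36567631, in the stop codon written in capitals. The SRSF6 exon is given in the same way, down to its own stop, as chr20:42087793-42087944 on the plus strand. It lies in transcripts typed as decay targets and also in those typed as protein-coding without a defined coding sequence. The B1 exon of HNRNPA2B1, chr7:26237451-26237486 on the minus strand, is the segment with the lesser spread described below and lies in protein-coding as well as decay and retained-intron transcripts; its 36 bases are shown whole and have no capitals.
SRSF3 decay exon, coding part: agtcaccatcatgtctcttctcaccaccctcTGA
SRSF6 decay exon, coding part: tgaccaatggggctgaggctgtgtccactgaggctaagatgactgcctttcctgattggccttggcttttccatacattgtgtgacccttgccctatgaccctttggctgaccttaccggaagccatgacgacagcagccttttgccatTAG
HNRNPA2B1 B1 exon: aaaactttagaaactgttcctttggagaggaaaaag

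The exon of SRSF6, an SR protein that promotes inclusion of weak exons, was also denser in WT and T275M than in GFP and G302V. The differences were smaller, and unlike SRSF3, SRSF6 had a higher density in siControl than in WT or T275M. Its 268-base exon (GRCh37 chr20:42087793-42088060) received 856 reads in siControl, 2292 in siDDX3X, 524 in GFP, 870 in WT, 637 in T275M and 379 in G302V. The density was 76.0% in siControl, 70.3% in siDDX3X, 47.9% in GFP, 66.5% in WT, 70.9% in T275M and 47.7% in G302V, so WT and T275M lay at the level of the siRNA libraries and GFP and G302V below them. The ratio to GFP was 1.39 in WT (1.25 to 1.55), 1.48 in T275M (1.32 to 1.67) and 0.996 in G302V (0.871 to 1.14), and GFP itself was at 0.630 of siControl (0.564 to 0.703). SRSF2, an SR protein that activates exons, did not share the pattern. Its 104-base exon (chr17:74731854-74731957, minus strand) lies in transcripts typed as decay targets or retained introns and holds no coding part of the decay transcripts: the density was 40.1% in siControl and 40.6% in siDDX3X, and 28.0% in GFP, 27.8% in WT, 29.8% in T275M and 23.1% in G302V.

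The B1 exon of HNRNPA2B1 varied less. It separates the row of the A2 isoform (NM_002137) from that of the longer B1 isoform (NM_031243) and received 1064 reads in siControl, 2588 in siDDX3X, 1003 in GFP, 1051 in WT, 839 in T275M and 692 in G302V. Its density was 62.2%, 68.5%, 69.0%, 65.6%, 70.2% and 71.3% in the same order. The counting interval of the ratio to GFP included 1 for WT (0.951, 0.871 to 1.04), T275M (1.02, 0.927 to 1.12) and G302V (1.03, 0.937 to 1.14), and the siDDX3X to siControl ratio was 1.10 (1.03 to 1.18). Taken per library total instead of relative to the gene, the siDDX3X ratio was 0.908, so its direction depends on the reference. In HNRNPD, an AU-rich element-binding protein that marks mRNAs for turnover, a 57-base segment, for which 2 annotated exons have the right length, had a density of 97.7% in siControl, 79.0% in siDDX3X, 93.9% in GFP, 106% in WT, 91.9% in T275M and 73.1% in G302V. It was lowest in G302V and siDDX3X, where the HNRNPD total was also low, with ratios of 0.778 for G302V against GFP (0.693 to 0.872) and 0.809 for siDDX3X against siControl (0.749 to 0.873).

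The SRSF3 exon was the only 1 of the 19 member segments to pass a 2-fold ratio, and it did so in WT against GFP, T275M against GFP and G302V against WT. Over such segments of all genes, 0.951% of 2208 passed 2-fold in WT against GFP and 1.11% of 2075 in T275M against GFP. In G302V against WT it was 0.457% of 2186. No member segment passed in the other comparisons. There the share over all segments was 0.608% for siDDX3X against siControl and 0.597% for G302V against GFP. It was 0.59% for T275M against WT and 0.632% for GFP against siControl. Neuronal markers were inspected beside this result: 3 of the 5 that passed the filter were higher in WT than in GFP, beside 62.1% of all genes. The vesicle fusion gene SNAP25 went from 0.115 RPKM in GFP to 1.38 in WT and 1.22 in T275M, with 0.290 in G302V. SNAP25 passed the filter against GFP only through WT, so in that count it could only be higher. The 2 lower in WT were the abundant NEFL, from 140 RPKM in GFP to 109, and NEFM, from 683 to 514. None of the 8 markers was at 0 in any library. Their summed level was 832 RPKM in GFP, 635 in WT, 664 in T275M and 760 in G302V. Their part in the result was not tested.

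**Figure D2:**
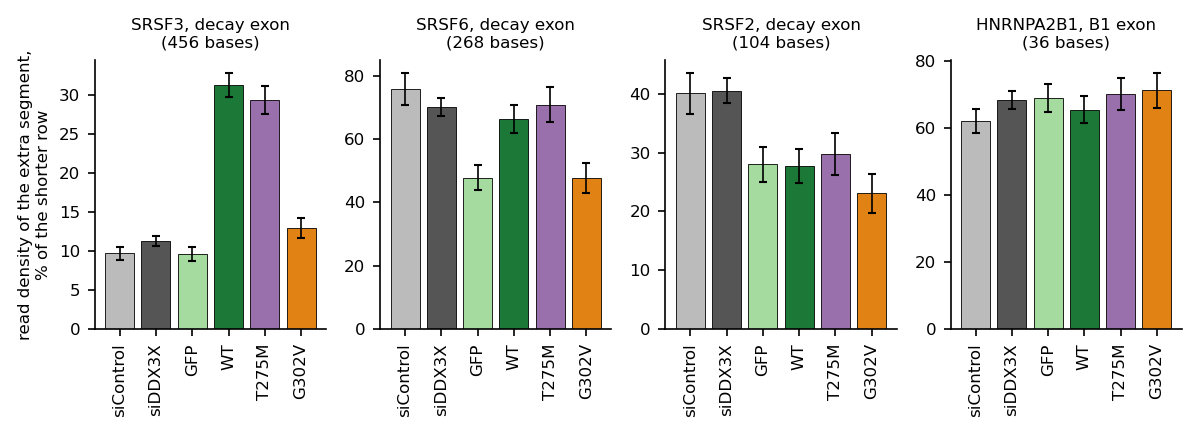
Read density of 4 alternative exons in each of the 6 libraries, as a percentage of the density of the shorter row of the gene; error bars are approximate 95% intervals from the number of extra reads and cover counting error only. The SRSF3 exon stood at 31.3% in WT and 29.4% in T275M and at 9.59% to 12.9% in the other 4 libraries, whereas the B1 exon of HNRNPA2B1 stayed between 62.2% and 71.3%.

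Of the 6 kinases that phosphorylate SR proteins, 2 passed 1.5-fold in WT against GFP, beside 2.21% of all genes, in T275M against GFP, beside 2.64%, and in G302V against WT, beside 1.76%. The list was chosen with earlier results of these data known, so these shares do not measure an excess. CLK1 stood at 20.1 RPKM in siControl, 18.2 in siDDX3X, 14.2 in GFP, 30.9 in WT, 29.7 in T275M and 14.9 in G302V. CLK4, its closest relative, stood at 7.11, 7.30, 6.92, 13.5, 13.4 and 7.76 RPKM in the same order. For both, WT and T275M were the 2 highest libraries and G302V was near GFP. On the log2(RPKM + 1) scale the difference from GFP was 1.07 in WT (95% counting interval 0.99 to 1.15), 1.01 in T275M (0.93 to 1.10) and 0.07 in G302V (−0.04 to 0.17) for CLK1. For CLK4 it was 0.87 (0.78 to 0.97), 0.86 (0.76 to 0.97) and 0.15 (0.03 to 0.26). Against WT, G302V was lower by −1.005 (−1.09 to −0.92) for CLK1 and −0.73 (−0.83 to −0.62) for CLK4. All 4 CLK1 rows in the tables moved together, the longest of them from 8.36 RPKM in GFP to 17.9 in WT. The other 4 kinases did not pass 1.5-fold in any of these comparisons: CLK3 was 0.28 higher in WT and 0.40 higher in T275M than in GFP, CLK2 and SRPK2 differed from GFP by 0.16 or less in WT and T275M, and SRPK1 was −0.20 lower in WT. In the siRNA pair none of the 6 kinases passed 1.5-fold, beside 2% of all genes, and CLK1 differed by −0.13 (−0.19 to −0.07).

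**Figure D3:**
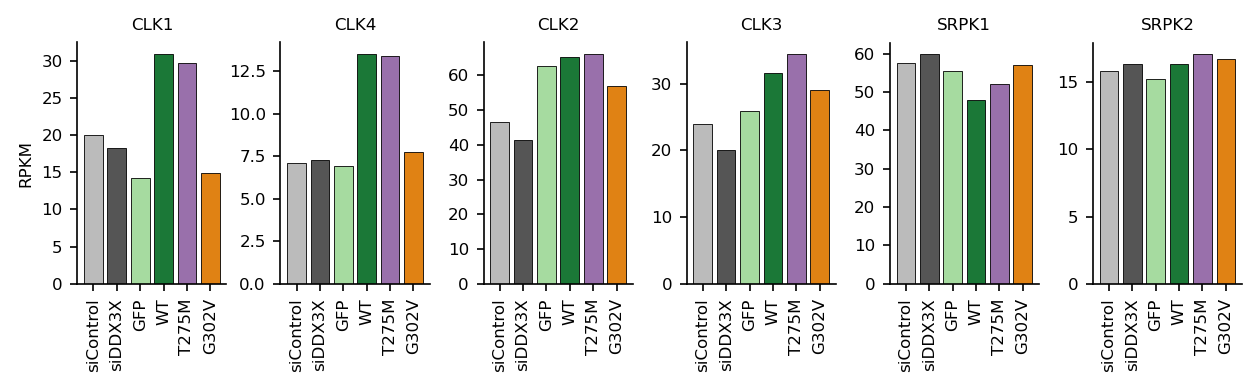
RPKM of the 6 SR protein kinases in each library, 1 library per group, each panel with its own axis from 0. CLK1 and CLK4 stood at 30.9 and 13.5 RPKM in WT and at 29.7 and 13.4 RPKM in T275M, against 14.2 and 6.92 RPKM in GFP and 14.9 and 7.76 RPKM in G302V.

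At the level of whole genes, no member passed 1.5-fold in any of the 7 comparisons made. A difference is given below as the difference of log2(RPKM + 1), with a 95% interval from the exact binomial (Clopper-Pearson) limits on the recovered reads. That interval covers counting error only: without molecular identifiers, reads are not independent counts of molecules. Since no member passed 1.5-fold, counts past 1.25-fold are given as well, a limit chosen after the data were seen.

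In the siDDX3X library the hnRNP genes stood lower than the SR genes, both by small amounts. Of 22 hnRNP symbols that passed the filter, 19 were lower in siDDX3X than in siControl, with a median of −0.24, and of 18 SR and SR-related genes 11 were lower, with a median of −0.07. Dividing the libraries by a median-ratio factor in place of the total left 17 of 22 hnRNP symbols lower with a median of −0.15 and 9 of 18 SR genes lower with a median of 0.01, so the direction of the SR genes depended on the scaling. The median over all 12694 genes was −0.02, and that over the 903 genes with 100 RPKM or more was −0.10. At that level, the median was −0.26 for 16 hnRNP genes and −0.17 for 5 SR genes. Past 1.25-fold were 6 lower hnRNP genes, 1 higher hnRNP symbol (HNRNPU-AS1) and no SR gene, in all 7 of 40, beside 15.1% of all genes. HNRNPA1 was among the 6 on its chosen row but not on its coding row. Past 1.5-fold were 0 of 40, beside 2%. In this pair the depth differs as well (180870000 against 67520000 reads). Its part was not tested.

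HNRNPH3, a relative of the G-tract-binding HNRNPH1 and HNRNPF, stood at 145 RPKM in siControl, 107 in siDDX3X, 138 in GFP, 155 in WT, 156 in T275M and 129 in G302V. It was the member with the lowest ratio in siDDX3X, −0.43 (−0.46 to −0.41), and 0.17 above GFP in WT (0.15 to 0.20). HNRNPC stood at 456 RPKM in siControl and 361 in siDDX3X, a difference of −0.34 (−0.35 to −0.33), with 404, 417, 408 and 380 RPKM in GFP, WT, T275M and G302V. For HNRNPA1 the ratio was −0.33 (−0.34 to −0.32) on the chosen row and −0.29 (−0.30 to −0.28) on the coding row NM_002136. HNRNPA2B1 stood at 704 RPKM in siControl, 580 in siDDX3X, 736 in GFP, 709 in WT, 699 in T275M and 617 in G302V. Its siDDX3X difference was −0.28 (−0.29 to −0.27), so that siDDX3X and G302V were its 2 lowest libraries. HNRNPK was −0.23 lower (−0.24 to −0.22). HNRNPD (−0.33, −0.34 to −0.31), HNRNPM (−0.32, −0.34 to −0.31) and HNRNPF (−0.32, −0.35 to −0.30) were the other hnRNP genes past 1.25-fold. Their intervals reached both sides of that limit. HNRNPL, a CA-repeat binder, fell just short at −0.30.

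A few members went the other way in the siRNA pair. HNRNPU-AS1, listed as antisense to the nuclear scaffold gene HNRNPU, was 0.33 higher (0.30 to 0.37), at 27.4 against 21.5 RPKM, while HNRNPU itself was −0.08 lower (−0.09 to −0.07); the library kit named in the labels does not mark strand, so reads of a gene and an overlapping antisense gene cannot be told apart. HNRNPUL1, an HNRNPU-like protein with a role in DNA repair, was 0.24 higher (0.22 to 0.26). SRRM2, a very large SR-related scaffold of nuclear speckles, was also 0.24 higher (0.23 to 0.26), at 83.3 RPKM in siDDX3X against 70.3 in siControl. PNN (pinin, GRCh37 chr14:39644387-39652424, plus strand), an SR-related partner of the exon junction complex that the study followed as protein, stood at 82.3 RPKM in siControl and 85.5 in siDDX3X, a difference of 0.05 (0.03 to 0.08). Of the 4 most abundant SR genes, SRSF9 was −0.24 lower (−0.26 to −0.21), SRSF3 −0.17 lower (−0.19 to −0.15), SRSF5 −0.14 lower (−0.17 to −0.11), and SRSF2 0.04 higher (0.02 to 0.06).

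**Figure D4:**
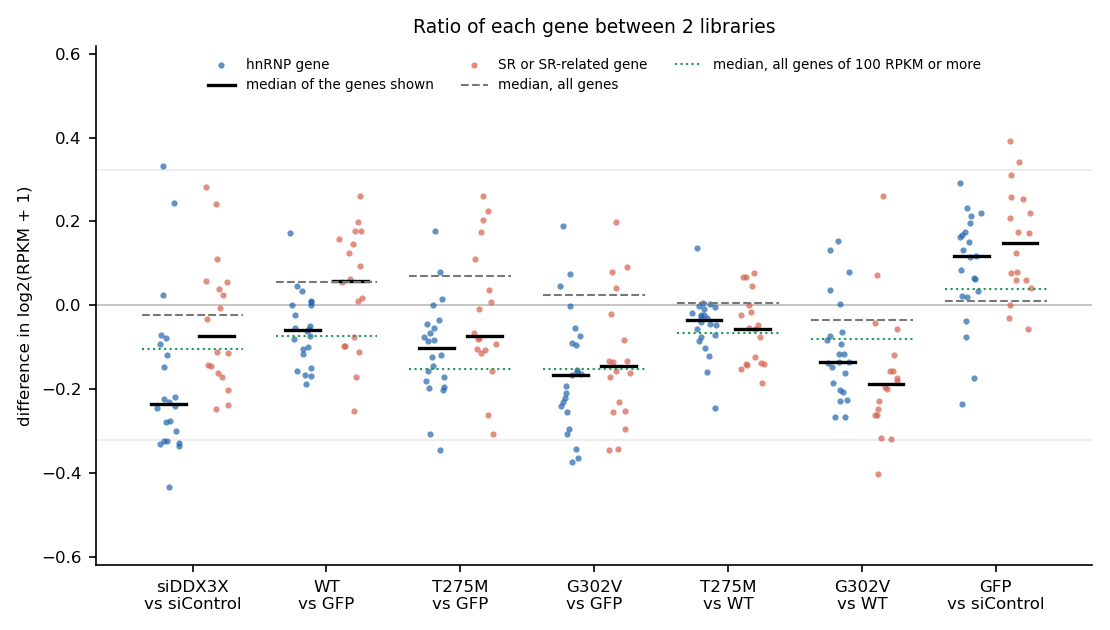
Difference in log2(RPKM + 1) between 2 libraries for each hnRNP gene (blue) and each SR or SR-related gene (red) in the 7 comparisons, with the group medians (black bars), the median over all genes (dashed) and over genes of 100 RPKM or more (dotted); faint lines mark 1.25-fold. The hnRNP median of −0.24 in siDDX3X against siControl lies below both reference medians, while in WT, T275M and G302V against GFP it lies near the dotted line. The black bars include members below 100 RPKM, unlike the dotted line.

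In WT against GFP the 2 families lay on either side of 0 by a small amount. Of 22 hnRNP symbols 15 were lower in WT, with a median of −0.06, and 12 of 18 SR genes were higher, with a median of 0.06, but under median-ratio scaling 11 of the 18 SR genes were lower, with a median of −0.04, and 21 of 22 hnRNP symbols were lower, with a median of −0.16. The median over all 12915 genes was 0.05 and over the 920 genes of 100 RPKM or more −0.07. No member passed 1.25-fold, beside 11.1% of all genes, or 1.5-fold, beside 2.21%. SRSF4, an SR protein with a long serine/arginine-rich tail, was highest at 70.3 RPKM against 58.5 in GFP, a difference of 0.26 (0.22 to 0.30). TRA2A, which binds GAA-rich exonic enhancers, followed at 0.20 (0.16 to 0.24), and SRSF8 at 0.18 (0.11 to 0.24). SRSF9 was lowest, at 253 RPKM against 301.8 in GFP, a difference of −0.25 (−0.28 to −0.22), followed by HNRNPM at −0.19 (−0.21 to −0.17) and SRRM2 at −0.17 (−0.19 to −0.15). HNRNPA2B1 was −0.05 lower (−0.06 to −0.04) and PNN −0.10 lower (−0.13 to −0.07).

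In T275M, 18 of 22 hnRNP symbols were lower than in GFP, with a median of −0.10, and 11 of 18 SR genes were lower, with a median of −0.07; with median-ratio scaling 21 of 22 and 13 of 18 were lower. Genes of 100 RPKM or more had a median of −0.15 in this pair, below both families, and all 12912 genes one of 0.07. HNRNPM, a repressor and activator of alternative exons that binds GU-rich sequence, stood at 285 RPKM in siControl, 228 in siDDX3X, 333 in GFP, 292 in WT, 262 in T275M and 257 in G302V. Its T275M difference of −0.35 (−0.37 to −0.32) was the only 1 of 40 members past 1.25-fold, beside 15.6% of all genes, and 0 passed 1.5-fold, beside 2.64%. HNRNPU, which tethers RNA to nuclear chromatin, was lowest in T275M of all libraries, at 185 RPKM against 206 to 229 in the other 5, and differed from GFP by −0.31 (−0.32 to −0.29). SRSF9 was −0.31 lower (−0.34 to −0.27). At the upper end, among members of 10 RPKM or more, SRSF4 was 0.26 higher (0.22 to 0.30), SRSF11 0.22 (0.19 to 0.26) and HNRNPH3 0.18 (0.15 to 0.21).

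G302V had 34 of 41 members below GFP, beside 29 of 40 in T275M and 21 of 40 in WT. The added member, HNRNPCL1, passed the filter only through G302V, at 1.14 RPKM against 0.872 in GFP and 0.921 in WT. HNRNPCL1 could thus only count as higher in comparisons with that library. Of 23 hnRNP symbols 20 were lower, with a median of −0.17, and of 18 SR genes 14, with a median of −0.15. The median was 0.03 over all 12775 genes and −0.15 over the 902 of 100 RPKM or more. At that level, it was −0.22 for 16 hnRNP genes and −0.25 for 6 SR genes, below that of the 902. With median-ratio scaling 20 of 23 and 15 of 18 were lower, about the same share as in T275M under that scaling. Past 1.25-fold were 5 of 41 members, all lower (HNRNPM, HNRNPD, HNRNPA1, SRSF7 and PNN), beside 11.7% of all genes, and past 1.5-fold 0, beside 1.77%. HNRNPM was −0.37 lower (−0.40 to −0.35), HNRNPD −0.36 (−0.39 to −0.34), HNRNPA1 −0.34 (−0.36 to −0.33) and SRSF7, an export-linked SR protein, −0.35 (−0.38 to −0.32). On its coding row HNRNPA1 was −0.32 lower (−0.34 to −0.31). PNN stood at 95.9 RPKM in GFP, 89.6 in WT, 88.5 in T275M and 75.4 in G302V, a difference of −0.34 from GFP in G302V (−0.38 to −0.31), so G302V was its lowest library. HNRNPA2B1 was −0.26 lower in G302V (−0.27 to −0.24) and −0.08 lower in T275M (−0.09 to −0.06). The members above GFP in G302V were few, with SRRM2 at 0.09 (0.07 to 0.11), SRSF4 at 0.08 (0.03 to 0.13) and HNRNPU-AS1 at 0.07 (0.02 to 0.13).

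The 3 comparisons above share the GFP library, so the substitutions were also set against WT. T275M lay close to WT: medians were −0.04 for 22 hnRNP symbols and −0.06 for 18 SR genes, none of 40 members passed 1.25-fold, beside 2.27% of all genes, or 1.5-fold, beside 0.347%, and the lowest members were HNRNPU at −0.24 (−0.26 to −0.23), SRSF1 at −0.19 (−0.21 to −0.16) and HNRNPM at −0.16 (−0.18 to −0.14). The highest of 10 RPKM or more were HNRNPU-AS1 at 0.14 (0.08 to 0.19), SRRM1 at 0.07 (0.03 to 0.10) and SRRM2 at 0.07 (0.05 to 0.09). G302V lay further from WT. In that pair 57.4% of all genes and 70.0% of those of 100 RPKM or more were lower in G302V. Of the SR genes 16 of 18 were lower, with a median of −0.19, and 18 of 23 hnRNP symbols, with a median of −0.14, beside −0.03 over all genes and −0.08 over the 887 of 100 RPKM or more; median-ratio scaling left 14 of the 18 SR genes and 18 of the 23 hnRNP symbols lower. The hnRNP median was thus 0.0525 above the SR median, and 0.0196 above it with a minimum of 100 RPKM. With that minimum the medians were −0.15 for 16 hnRNP genes and −0.17 for 7 SR genes. SRSF7 stood at 150 RPKM in siControl, 130 in siDDX3X, 169 in GFP, 176 in WT, 160 in T275M and 133 in G302V, and its difference from WT of −0.40 (−0.43 to −0.37) made it the only 1 of 41 members past 1.25-fold, beside 10.8% of all genes. None passed 1.5-fold, beside 1.76%. SRSF10, a splicing repressor when dephosphorylated, and TRA2B, the paralogue of TRA2A, were each −0.32 lower (−0.37 to −0.27 and −0.35 to −0.28). SRRM2 ran against its family at 0.26 (0.24 to 0.28). Next among members of 10 RPKM or more were HNRNPU-AS1 at 0.13 (0.08 to 0.19) and HNRNPUL2 at 0.08 (0.01 to 0.15).

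The 2 control libraries differed by about as much as the treatments did. In GFP against siControl, 18 of 22 hnRNP symbols and 16 of 18 SR genes were higher, with medians of 0.12 and 0.15, beside 0.01 over all 12730 genes and 0.04 over the 934 of 100 RPKM or more. Of all genes 51.9% were higher in GFP, and of those of 100 RPKM or more 63.9%. Past 1.25-fold were 2 of 40 members, SRSF5 and ACIN1, beside 14.1% of all genes, and past 1.5-fold none, beside 2.33%. SRSF5 stood at 147 RPKM in siControl and 193 in GFP, a difference of 0.39 (0.36 to 0.43). ACIN1, an SR-related protein of the exon junction-linked ASAP complex, was 0.34 higher (0.31 to 0.38) and SRRM2 0.31 (0.29 to 0.33). The lowest were HNRNPU-AS1 at −0.24 (−0.29 to −0.19), HNRNPC at −0.17 (−0.19 to −0.16) and HNRNPH3 at −0.08 (−0.10 to −0.05). Plasmid against siRNA, 32 h against 48 h and sorting cannot be told apart in this pair.

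Other parts of the splicing apparatus were read from lists of genes in the same pathway, chosen with earlier results of these data known. In siDDX3X against siControl, 54.5% of all genes and 73.0% of those of 100 RPKM or more were lower. Of 12 genes for hnRNP-class proteins with other symbols, all 12 were lower in that pair, with a median of −0.17, and 3 passed 1.25-fold, beside 15.1% of all genes: the cold-inducible CIRBP (−0.47) and the poly(C)-binding PCBP2 (−0.41) and PCBP1 (−0.36). Of 27 spliceosome core genes, 25 were lower in siDDX3X, with a median of −0.25. Against GFP 25 were lower in G302V (median −0.23), 23 in T275M (−0.18) and 19 in WT (−0.07). None of the 27 passed 1.5-fold, beside 2% of all genes in siDDX3X, 1.77% in G302V, 2.64% in T275M and 2.21% in WT. Of all genes of 100 RPKM or more, 88.9% were lower than in GFP in G302V, 88.0% in T275M and 75.3% in WT. Of those of 10 RPKM or more, 57.5%, 51.0% and 49.5% were lower in the same order, and of all genes 45.2%, 37.8% and 37.9%. The shares of the spliceosome core genes were near the first of these sets. That list also held genes below 100 RPKM, such as CDC5L at 22.9 RPKM in GFP, so the levels are not matched. Genes of the exon junction complex and ASAP complex, partners of PNN and ACIN1, were lower in siDDX3X in 7 of 7 (median −0.19) and in G302V against GFP in 7 of 7 (median −0.24), including the core subunits EIF4A3 (−0.40 and −0.35) and MAGOH (−0.22 and −0.42). In T275M against GFP 6 of the 7 were lower, with a median of −0.11, and in WT against GFP 5 of the 7 were higher, with a median of 0.06.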

How the data were processed

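Total RNA of the 6 HEK293T groups was made into TruSeq libraries and sequenced on an Illumina HiSeq. Per the study's methods, the authors trimmed adapters with cutadapt, aligned reads with BWA 0.5.5 to NCBI build 37, RefSeq transcripts and exon junctions, kept the best alignment, removed duplicates, counted reads per gene and normalized them. The deposited tables give RPKM for 39618 transcript rows, as the file headers name it, and the methods call it FPKM. Reads were recovered from the RPKM steps, and 100% of the low values checked were whole within 0.1 of a read.

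Per symbol the row of highest mean RPKM was used. A gene entered a comparison with 1 RPKM and 10 reads in at least 1 of its 2 libraries. Differences are of log2(RPKM + 1). With 1 library per group no test was made, and the reads served counting intervals only. Segments needed 20 bases and 50 extra reads in 1 library, and a GENCODE 44 exon of that length on GRCh37. Sequences were read from the GRCh37 genome.

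Genes named are HNRNPA2B1 and PNN, the 4 most abundant members of each family, and per comparison the 3 highest and 3 lowest with 10 RPKM or more. The isoforms, kinases and other members named beyond these were chosen after their values were seen. Members and lists were chosen with earlier results of these data known. Computation used pandas 2.3.3, numpy 2.4.6 and scipy 1.17.1 under Python 3.11.15, with matplotlib 3.10.9 for plots. The read recovery and intervals were tested on simulated data. Alternatives were other pseudocounts, filters, scaling and choices of row and member.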

Additional observations from a re-analysis of the deposited data

Results flagged for a closer look

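SRSF10 and TRA2B stood above GFP in 1 or more DDX3X libraries and below it in another by at least 0.1 on the log2(RPKM + 1) scale. SRSF10 was 0.159 higher in WT and 0.111 higher in T275M, and −0.161 lower in G302V. TRA2B was 0.146 higher in WT and −0.17 lower in G302V, with 0.01 in T275M. With median-ratio scaling the WT differences were 0.06 for SRSF10 and 0.04 for TRA2B, so neither was then 0.1 above GFP in any DDX3X library, and those in G302V were −0.20 and −0.21. With 1 library per group the difference between WT and G302V was not tested.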

How the results depend on the processing

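The count of 0 members past 1.5-fold was the same in all 7 comparisons under each of 11 alternatives. The difference between the hnRNP and SR medians kept its sign in siDDX3X against siControl (−0.162) and in WT against GFP (−0.119) under all alternatives run. In siDDX3X it was −0.123 with a minimum of 10 RPKM, −0.121 with SRSF symbols alone and −0.0901 with a minimum of 100 RPKM, and in WT it was −0.067 with that last minimum. For G302V against GFP (−0.0206) it changed sign to 0.032 with a minimum of 100 RPKM. For GFP against siControl (−0.0313) it was 0.0171 with a pseudocount of 10, 0.0154 with SRSF symbols alone and −0.117 with a minimum of 100 RPKM. The cause was not tested. For G302V against WT (0.0525) it was 0.0276 with a pseudocount of 10 and 0.0196 with a minimum of 100 RPKM. Of 101 ratios of named genes, 70 left their counting interval under median-ratio scaling and 2 changed sign: SRSF3 in WT against GFP (0.0093 to −0.0933) and SRSF9 in G302V against WT (−0.0423 to 0.0184). Taken relative to the longer row, all 28 ratios of the 4 plotted exons stayed in their intervals. Per library total 10 of 28 left them: the SRSF3 exon stayed past 2-fold in the same 3 comparisons (3.29, 2.93 and 0.343) but was 1.13 in G302V against GFP and 1.03 in siDDX3X, and the B1 exon of HNRNPA2B1 turned from above to below 1 in siDDX3X (0.908), in G302V against GFP (0.866) and in G302V against WT (0.945), as did the SRSF2 exon in T275M against GFP (0.885). No paired analysis was possible because each group is 1 library. Depth limits the 43720000-read G302V library most.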

Other observations

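Among 16 tissue-restricted splicing regulators, 9 passed the filter, and in WT against GFP 8 of the 9 were higher, with a median of 0.22, in T275M against GFP 9 of 9, with a median of 0.33, and in G302V against GFP 9 of 9, with a median of 0.18, beside 62.1%, 62.2% and 54.8% of all genes higher. PTBP2, the neural relative of the polypyrimidine tract-binding PTBP1, stood at 6.90 RPKM in siControl, 6.80 in siDDX3X, 7.06 in GFP, 13.5 in WT, 12.7 in T275M and 8.39 in G302V. It was 0.85 above GFP in WT (95% counting interval 0.77 to 0.94) and −0.63 below WT in G302V (−0.72 to −0.54). MBNL2, a regulator of developmental splicing, was low, at 2.41 RPKM in GFP, 4.06 in WT, 4.63 in T275M and 3.64 in G302V. It was 0.57 higher in WT, 0.72 higher in T275M and 0.44 higher in G302V than in GFP. The list of regulators was also chosen with earlier results of these data known.

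Of 10 nonsense-mediated decay factors, none passed 1.25-fold in WT against GFP or in T275M against GFP, beside 11.1% and 15.6% of all genes, where medians were 0.01 and 0.06. SMG1, the kinase that phosphorylates the decay helicase UPF1, was 0.75 higher in siDDX3X than in siControl (0.72 to 0.77) and 0.60 higher in G302V than in GFP (0.55 to 0.64), and GFP was −0.69 below siControl (−0.73 to −0.65).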
